A study of Mus musculus with 9 samples.

Results

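The comparison described here sets the hypothalamus against the prefrontal cortex of the same mice. It rests on 6 of the 9 arrays of the study, 3 for each region, which were selected by their tissue label. The 3 remaining arrays, from the amygdala, entered the statistical fit only to share its estimate of spread. All mice were wild-type male C57BL/6J animals aged 8 to 9 weeks. The AD group ate freely, the RFR group was fasted and refed on alternate days, and the CR group was given over each 2-day cycle a reduced ration set from the intake of the RFR mice. Tissue was taken on day 8 at 14:00, under ether anaesthesia and after perfusion with cold saline, and total RNA of 4 mice per group was pooled before 400 ng was labelled with Cy3 and hybridised to a whole mouse genome array. There was therefore 1 array per region and diet, and no repeat array of any pool. The arrays of both regions in a diet came from the same pooled mice, so the 3 diets served as 3 pairs. The p-values below rest on the spread left after region and diet over all 9 arrays, the amygdala included, and partly shared between genes. That spread also takes in any effect of diet that differs between regions.

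The hypothalamus was cut from a coronal slice of 1 mm that began 1.5 mm and ended 2.5 mm behind bregma. For the prefrontal cortex the labels give a slice from 2.5 to 3.5 mm, also behind bregma. The prefrontal cortex of the mouse lies in front of bregma, so this position does not match the name. Of the marker genes given below, 21 of 24 fitted hypothalamic factors were higher and 19 of 24 fitted cortical factors lower in the hypothalamus. Cortical layer markers were mixed, with 9 higher and 8 lower of 22. None of the marker genes separates prefrontal from other cortex. The tissue is called prefrontal cortex here as labelled. The position given for the hypothalamus was likewise taken from the labels and was not tested. In bulk tissue such as this, fewer cells of a type and less RNA per cell cannot be told apart.

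The hypothalamus is an evolutionarily old collection of small nuclei that controls feeding, water balance, reproduction, stress and sleep. Many of its neurons release peptides, either locally or through the pituitary, alongside GABA or glutamate. The prefrontal cortex is a layered sheet made mainly of glutamatergic pyramidal cells, which arise under the control of the basic helix-loop-helix factors NEUROD2 and NEUROD6, with a minority of GABA interneurons. Pyramidal cells load glutamate into vesicles with the transporter VGLUT1, the product of Slc17a7, and most glutamatergic neurons of the hypothalamus and thalamus use VGLUT2, the product of Slc17a6.

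The RefSeq promoter windows of 5 genes among the largest differences are shown, because these genes lay at the extremes of the comparison: the peptide genes Hcrt, Pmch, Avp and Oxt, and the cortical factor Neurod2. Each window runs from 250 bases before the annotated start to 50 bases after it on build GRCm38.p6 and is written 5′ to 3′ on the strand of the gene. Capitals mark a TATA box (TATAAA) or the E-box bound by NEUROD factors (CAGATG), searched on both strands, with no overlap between the matches. The windows lie at chr11:100762882-100763181, minus strand (Hcrt), chr10:88090822-88091121, plus strand (Pmch), chr2:130582539-130582838, minus strand (Avp), chr2:130575919-130576218, plus strand (Oxt) and chr11:98329596-98329895, minus strand (Neurod2).
Hcrt: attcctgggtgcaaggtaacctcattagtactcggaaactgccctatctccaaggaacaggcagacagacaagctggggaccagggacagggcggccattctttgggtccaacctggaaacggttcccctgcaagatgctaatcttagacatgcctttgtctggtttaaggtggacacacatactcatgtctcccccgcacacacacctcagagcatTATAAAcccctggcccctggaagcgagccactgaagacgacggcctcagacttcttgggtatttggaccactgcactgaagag
Pmch: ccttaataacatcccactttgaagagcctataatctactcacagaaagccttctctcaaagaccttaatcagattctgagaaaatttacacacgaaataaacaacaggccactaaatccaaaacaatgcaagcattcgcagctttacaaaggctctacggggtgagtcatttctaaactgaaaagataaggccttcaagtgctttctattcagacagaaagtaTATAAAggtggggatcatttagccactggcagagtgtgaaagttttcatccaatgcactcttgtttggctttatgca
Avp: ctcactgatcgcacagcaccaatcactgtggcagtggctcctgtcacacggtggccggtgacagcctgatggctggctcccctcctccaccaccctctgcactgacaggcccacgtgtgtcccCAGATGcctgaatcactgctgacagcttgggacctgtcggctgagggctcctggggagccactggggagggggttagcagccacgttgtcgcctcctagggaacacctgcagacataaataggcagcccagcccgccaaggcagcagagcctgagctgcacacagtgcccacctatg
Oxt: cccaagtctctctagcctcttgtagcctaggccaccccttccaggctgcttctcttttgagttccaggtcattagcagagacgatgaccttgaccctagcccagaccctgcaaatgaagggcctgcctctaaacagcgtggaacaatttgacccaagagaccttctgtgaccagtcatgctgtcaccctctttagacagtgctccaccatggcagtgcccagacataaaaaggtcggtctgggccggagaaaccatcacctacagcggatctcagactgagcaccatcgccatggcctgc
Neurod2: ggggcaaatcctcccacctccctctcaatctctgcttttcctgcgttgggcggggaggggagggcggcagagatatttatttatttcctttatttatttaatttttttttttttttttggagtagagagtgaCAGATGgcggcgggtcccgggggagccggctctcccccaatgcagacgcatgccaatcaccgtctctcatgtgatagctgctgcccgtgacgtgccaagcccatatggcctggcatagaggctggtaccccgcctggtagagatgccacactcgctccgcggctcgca
The TATA box began 33 bases before the start in Hcrt and 27 bases before it in Pmch. TATAAA was found in 13.6% of the 32851 mouse windows of this length. CAGATG began 127 bases before the start in Avp and 118 bases before it in Neurod2, and 17.2% of all windows held it. Neither motif occurred in the Oxt window. These matches describe the letters of the windows and were not tested for binding.

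Levels are log2 background-subtracted signals after subtraction of each array's own 75th percentile, so that 0 is the level of that percentile. Where 3 values of a region are given, they are in the order AD, RFR and CR. A probe was called well above background by the scanner software. Between 59.8% and 65% of the spots passed on each of the 6 arrays, and 12618 genes were bright enough to be fitted. Among the 11231 genes well above background on every array, the median absolute difference was 0.15 to 0.21 between arrays of the hypothalamus and 0.15 to 0.20 between arrays of the prefrontal cortex. It was 0.37 to 0.40 between the regions in the same diet. Differences of at least 2-fold were seen for 0.436% to 1.19% of genes within a region and for 15.8% to 16.9% of genes between the regions of a diet.

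Fitted with limma across regions and diets, 6054 genes (48%) passed a Benjamini-Hochberg adjusted p of 0.05. Of these, 3371 (26.7%) were higher and 2683 (21.3%) lower in the hypothalamus. The median fitted difference over all genes was 0.06. For 59.2% of all fitted genes the hypothalamus and prefrontal cortex arrays did not overlap, and every list below has to be read against these shares. Most differences were small: 1251 of the higher and 1125 of the lower genes differed by at least 2-fold, 461 and 394 by at least 4-fold, and 118 and 56 by at least 16-fold. The 461 genes higher by at least 4-fold had the same direction in all 3 diets, as had 390 of the 394 lower genes. In this count, and in that for the slides below, a gene lacking a value on an array was not counted as keeping its direction. Without the RFR pool 3496 genes passed, of which 2006 were higher and 1490 lower, and the fits without another pool or a single array gave 4592 to 5232. The AD pair and the CR pair each lay on 1 slide, and the RFR pair was split over both slides. Within each slide, 3358 of the 3371 higher and 2662 of the 2683 lower genes kept their direction. With the slide as a fixed term 5500 genes passed.

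**Figure D1:**
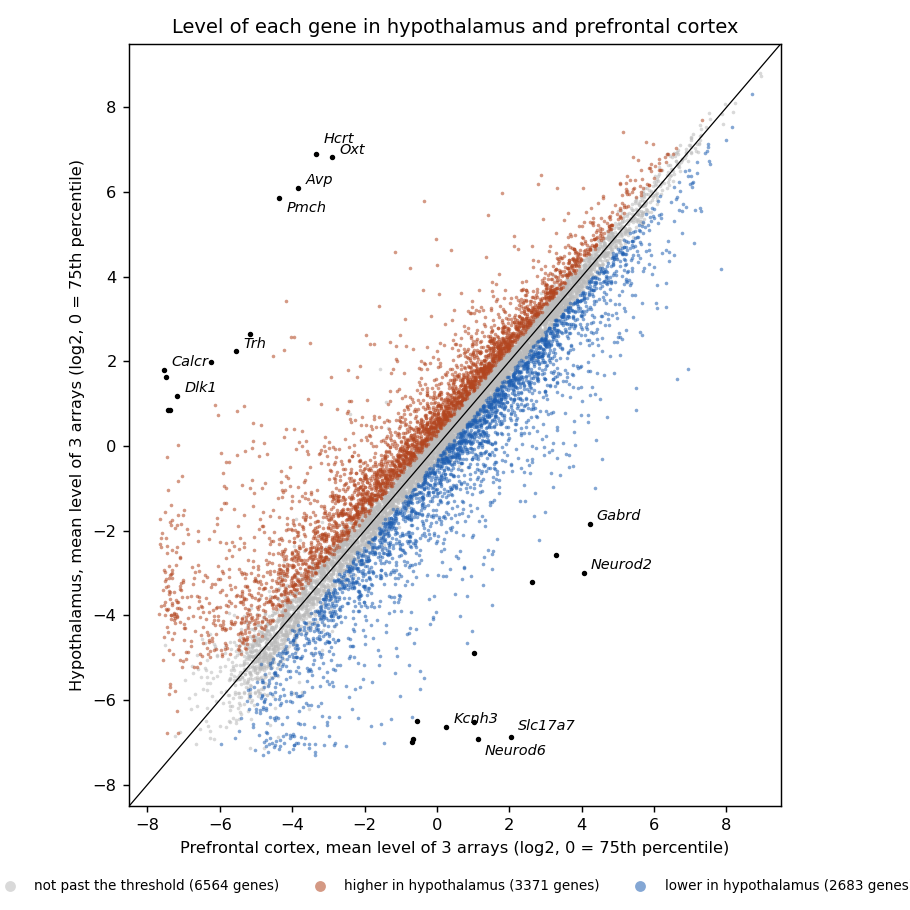
Mean level of each of the 12618 fitted genes in the prefrontal cortex (x axis) and in the hypothalamus (y axis), both in log2 with 0 at the 75th percentile of an array, means of 3 arrays. Black points are the 12 largest differences in each direction; the line marks equal levels, and Hcrt, Pmch, Avp and Oxt lie farthest above it.

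By fitted difference, the 12 genes with the largest excess in the hypothalamus were Hcrt, Pmch, Avp, Oxt, Calcr, Lhx5, Dlk1, Hmx3, Isl1, Sytl4, Nts and Trh. They comprise 6 peptide precursors, 3 homeodomain factors (Lhx5, Hmx3, Isl1), the calcitonin receptor, the imprinted ligand Dlk1, and Sytl4, which tethers secretory granules to the membrane. The 12 genes with the largest fitted deficit were Slc17a7, Neurod6, Krt12, Neurod2, Kcnh3, Mas1, Slc23a3, Gabrd, Dtl, Psrc1, Dkkl1 and Igfbp6. They comprise VGLUT1, both NEUROD factors, the potassium channel subunit Kcnh3, the G protein-coupled receptor Mas1, the GABA receptor subunit Gabrd and 6 genes of other classes. Among these, Krt12 encodes a keratin best known from the cornea, and its 3 prefrontal cortex levels were 1.04, 0.93 and 1.11. It was not well above background on any hypothalamus array, a deficit of at least 65.3-fold (log2 difference -7.54, SE 0.14, adjusted p = 7.7e-07). Igfbp6, which binds insulin-like growth factors, measured -3.84, -3.53 and -2.29 in the hypothalamus and 2.45, 2.65 and 2.79 in the prefrontal cortex, a 57.5-fold deficit (log2 difference -5.85, SE 0.33, adjusted p = 1.7e-05).

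Where a gene was well above background on under 3 of 3 arrays of the dimmer region, the fold is given as a lower bound ("at least"), and the log2 difference beside it is the fitted value, which rests on signals below that limit. The bound uses the dimmest signal that each array could call, or the signal of the probe itself where that was higher. No array of the dimmer region was well above background for 192 of the 461 higher and 107 of the 394 lower genes beyond 4-fold. Calcr stood at 1.81, 1.67 and 1.93 in the hypothalamus and was not well above background on any prefrontal cortex array, at least 144-fold higher (log2 difference 9.34, SE 0.18, adjusted p = 7.7e-07). A second Calcr probe gave a difference of 3.95. The order of the 24 genes is therefore that of fitted values. Ghrh and Asb4, measured in both regions at 99.8-fold and 97.1-fold higher, exceed the bounds of Dlk1 (93.7-fold), Isl1 (74.6-fold) and Hmx3 (74.3-fold). Cck, measured in both at 34.8-fold lower, exceeds the bounds of Dtl (21.7-fold), Slc23a3 (20.3-fold) and Mas1 (19.9-fold). Under the normexp background correction all 24 log2 differences were smaller in size, and the main value was 1.08 to 2.0 times the normexp value. For 13 of the 24 genes this ratio of log2 differences exceeded 1.5, for example Calcr at 5.62 and Kcnh3 at -3.72 instead of -6.89. Folds shrank more than these ratios show, and Pmch went from 10.23 to 8.83 in log2. The normexp values of Calcr and Kcnh3 lie below their bounds of 144-fold and 38.1-fold, so the bounds hold for the main background subtraction only. All 24 still passed under each of the alternatives in which they were fitted.

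**Figure D2:**
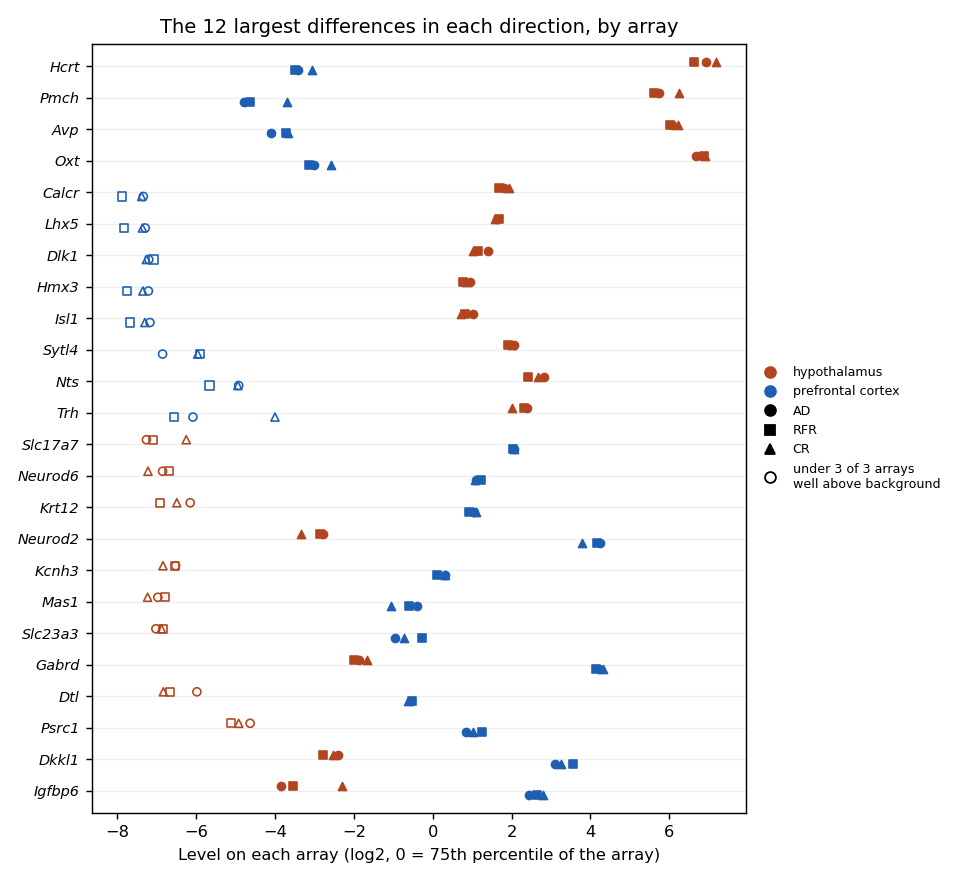
Level on each array (x axis, log2 with 0 at the 75th percentile of the array) of the 12 genes with the largest fitted excess and the 12 with the largest fitted deficit in the hypothalamus. Colours give the region, symbols the diet, and open symbols mark regions where under 3 of 3 arrays were well above background; in no gene do the regions overlap.

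Most neuropeptide precursors were higher in the hypothalamus. Of 40 listed genes 37 were on the array and 32 were fitted; 24 were higher and 6 lower in the hypothalamus, with a median difference of 3.02 against 0.06 over all genes. The median was 2.19 with dim values raised to the limit of each array and 1.66 over the members well above background on all 9 arrays. Hcrt, the precursor of the orexins that sustain wakefulness and feeding, measured 6.92, 6.62 and 7.19 in the hypothalamus and -3.41, -3.50 and -3.07 in the prefrontal cortex. The 2 sets of arrays were separated 1200-fold (log2 difference 10.23, SE 0.30, adjusted p = 1.6e-06). Pmch, the precursor of melanin-concentrating hormone, which is made by neighbouring cells of the lateral hypothalamus and promotes feeding, measured 5.74, 5.61 and 6.25 against -4.78, -4.63 and -3.69. Its excess was also 1200-fold (log2 difference 10.23, SE 0.35, adjusted p = 2.6e-06). Both genes were highest on the CR array in each of the 2 regions.

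The neurohypophysial hormones were higher too. Avp, which encodes vasopressin, measured 6.06, 6.03 and 6.21 in the hypothalamus and -4.09, -3.73 and -3.66 in the prefrontal cortex, 976-fold higher (log2 difference 9.93, SE 0.14, adjusted p = 4.8e-07). Oxt, which encodes oxytocin, measured 6.69, 6.87 and 6.90 against -3.00, -3.14 and -2.57, 844-fold higher (log2 difference 9.72, SE 0.28, adjusted p = 1.6e-06). For both, the arrays within a region spanned less than 1 log2 unit. Of the releasing hormones, Trh, Ghrh and Gnrh1 were higher. Trh, the precursor of thyrotropin-releasing hormone, stood at 2.38, 2.32 and 2.02 in the hypothalamus and was well above background on 1 of 3 prefrontal cortex arrays, at least 150-fold higher (log2 difference 7.79, SE 0.54, adjusted p = 4.1e-05). Ghrh, the releasing hormone of growth hormone, measured 2.38, 2.0 and 1.99 against -4.80, -4.43 and -4.33, 99.8-fold higher (log2 difference 6.64, SE 0.21, adjusted p = 2.1e-06). Gnrh1, the releasing hormone of the gonadotropins, stood at 0.02, -0.31 and -0.44 and was well above background on 1 of 3 prefrontal cortex arrays, at least 24.4-fold higher (log2 difference 4.66, SE 0.21, adjusted p = 7.3e-06).

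Of the peptides of the arcuate nucleus that set appetite, Agrp, Pomc and Cartpt were higher and Npy was lower. Agrp, which drives feeding, stood at 0.76, 1.13 and 0.98 and was not well above background on any prefrontal cortex array, at least 77.3-fold higher (log2 difference 6.29, SE 0.21, adjusted p = 2.6e-06). Pomc, the precursor of the appetite-suppressing melanocortins, measured 4.88, 4.07 and 3.92 in the hypothalamus and -0.18, 0.64 and -0.44 in the prefrontal cortex, 19.5-fold higher (log2 difference 4.28, SE 0.41, adjusted p = 0.00019). Its AD array was the highest of the 3 hypothalamus arrays, and the differences in AD, RFR and CR were 5.07, 3.43 and 4.36. Gal, which encodes galanin, measured 4.92, 4.42 and 4.40 against -1.18, -1.03 and -1.24, 52.9-fold higher (log2 difference 5.72, SE 0.21, adjusted p = 2.9e-06). Nts, the neurotensin precursor, stood at 2.82, 2.42 and 2.67 and was well above background on 2 of 3 prefrontal cortex arrays, at least 225-fold higher (log2 difference 7.81, SE 0.17, adjusted p = 9.2e-07). The remaining higher members were Calca, Cartpt, Prok2, Ucn3, Nmu, Npb, Tac1, Pnoc, Nmb, Tac2, Pdyn, Penk and Adcyap1, with differences from 5.06 down to 0.85.

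All 6 lower members are given here irrespective of size. Cck, cholecystokinin, which in cortex is made by pyramidal cells and a class of interneurons, measured 1.67, 1.85 and 1.93 in the hypothalamus and 6.91, 7.01 and 6.90 in the prefrontal cortex. It was 34.8-fold lower (log2 difference -5.12, SE 0.17, adjusted p = 2.1e-06), the largest fitted deficit among the peptides. Cort, which encodes the somatostatin-related cortistatin of interneurons, measured -3.99, -4.14 and -4.85 against -0.54, -0.51 and -0.65, 13.5-fold lower (log2 difference -3.76, SE 0.17, adjusted p = 7.1e-06). Ucn stood at -3.44, -4.01 and -4.22 in the prefrontal cortex and was not well above background on any hypothalamus array, at least 2.16-fold lower (log2 difference -3.12, SE 0.32, adjusted p = 0.00025). Vip measured -0.44, -0.34 and -0.97 against 1.15, 1.37 and 1.26, 3.58-fold lower. Npy, made by arcuate neurons together with Agrp and also by cortical interneurons, measured 1.50, 1.63 and 1.84 against 3.34, 3.24 and 3.37, 3.15-fold lower (log2 difference -1.66, SE 0.16, adjusted p = 0.00019). Kiss1, the kisspeptin precursor that drives the reproductive axis, measured -1.23, -2.11 and -2.24 against -0.39, -0.66 and -1.13, 2.2-fold lower (log2 difference -1.14, SE 0.18, adjusted p = 0.0018). Its arrays of the 2 regions came close to each other without overlapping. Sst, at 4.43, 4.63 and 4.96 against 4.56, 4.87 and 4.95, did not pass (adjusted p = 0.57), nor did Grp (log2 difference -0.31, adjusted p = 0.079).

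**Figure D3:**
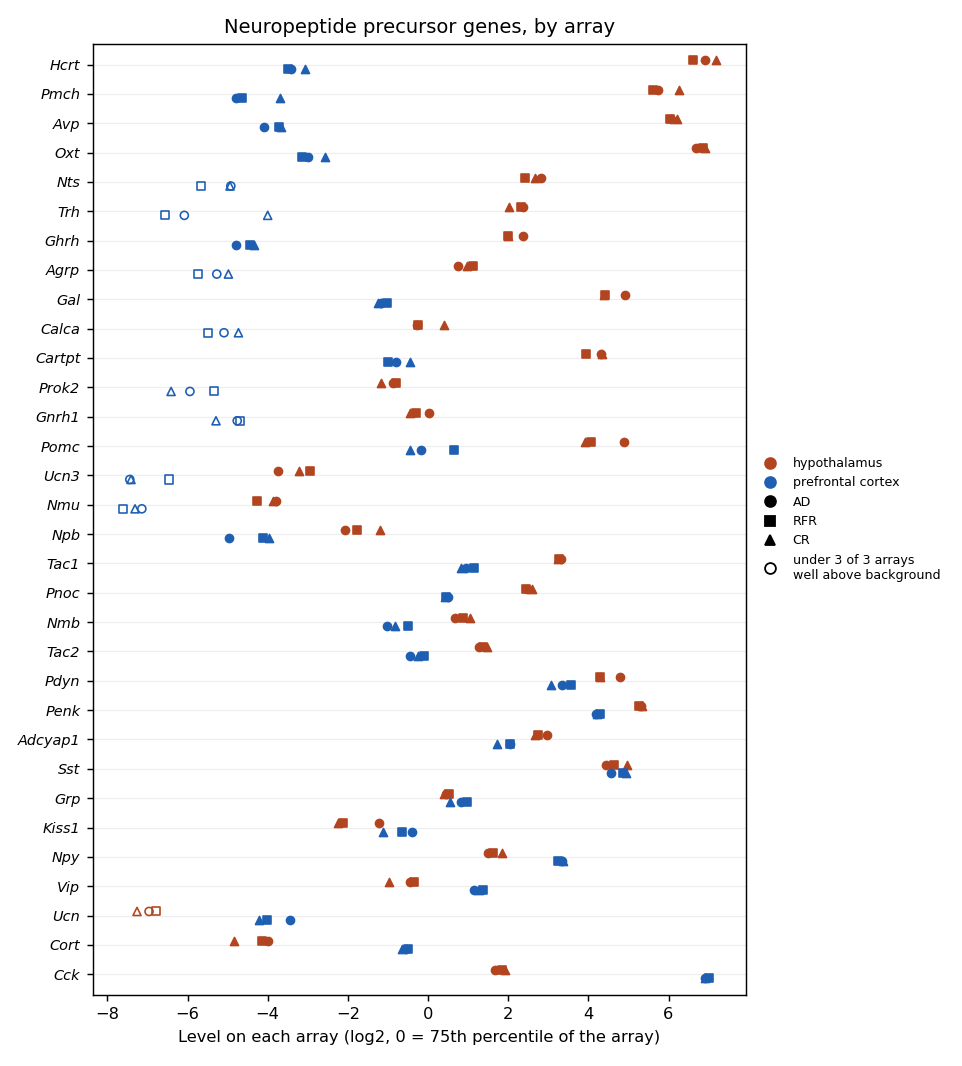
Level on each array (x axis, log2 with 0 at the 75th percentile of the array) of the 32 fitted neuropeptide precursors, ordered by their fitted difference. Colours give the region, symbols the diet, open symbols a region with under 3 of 3 arrays well above background; 24 genes from Hcrt down to Adcyap1 were higher in the hypothalamus and 6 from Kiss1 down to Cck were lower.

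Genes that convert precursors to active peptides did not share this excess. Of 10 fitted members 3 were higher and 3 lower, with a median difference of 0.10. The granin Scg2 measured 4.22, 4.06 and 3.93 in the hypothalamus and 1.80, 1.63 and 1.70 in the prefrontal cortex, 5.13-fold higher (log2 difference 2.36, SE 0.17, adjusted p = 5.4e-05). Of the 2 prohormone convertases, Pcsk1 measured 1.69, 1.56 and 1.58 against -0.51, -0.33 and -0.49, 4.15-fold higher, and Pcsk2 measured 4.67, 4.38 and 4.48 against 6.07, 5.87 and 5.79, 2.65-fold lower. Without the RFR pool 1 of the 3 lower members still passed.

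Among transcription factors that specify hypothalamic neurons, most of those bright enough to be fitted were higher. Of the 32 genes on the array 8 were not fitted. Among these, Otp, Lmx1a, Lmx1b, Barhl2, Irx3, Irx5 and Bsx were not well above background on any array of either region. Genes bright only in the hypothalamus passed the filter through that region. Of 24 fitted members 21 were higher and Arnt2 alone was lower (log2 difference -0.52, adjusted p = 0.014, which did not pass without the RFR pool or any 1 of 4 single arrays). The median difference was 2.68, and 2.05 with dim values raised to the limit of each array. For 20 of the 32 genes on the array no prefrontal cortex array was well above background, and with genes restricted to those well above background on all 9 arrays 9 members passed as higher. Hmx3, needed for the development of hypothalamus and inner ear, stood at 0.94, 0.77 and 0.84, at least 74.3-fold above the prefrontal cortex (log2 difference 8.29, SE 0.22, adjusted p = 1.4e-06). Isl1, a factor of arcuate neurons, stood at 1.02, 0.82 and 0.73, at least 74.6-fold higher (log2 difference 8.24, SE 0.17, adjusted p = 9.2e-07). Nkx2-1, which defines the ventral hypothalamus, stood at -1.55, -1.56 and -1.07, at least 15.6-fold higher (log2 difference 5.95, SE 0.17, adjusted p = 1.6e-06). None of these 3 was well above background on any prefrontal cortex array. Foxb1 of the mammillary bodies stood at -2.0, -1.75 and -1.43 (at least 12.4-fold), Lhx1 of the suprachiasmatic nucleus at -0.39, -0.58 and -0.95 (at least 26.4-fold), and Sim1 of the paraventricular nucleus at -3.55, -3.17 and -3.27 (at least 4.09-fold).

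Markers of the territories of the hypothalamus differed in how far they were detected. All 9 fitted markers of anterior nuclei were higher, with a median of 4.95, among them Avp, Oxt, Trh, Lhx1, Prok2, Gnrh1, Six6 and Sim1. Most of them passed the filter through the hypothalamus, and 3 were higher when all 9 arrays had to be well above background. Of 9 fitted tuberal markers 8 were higher, with a median of 4.28, and Kiss1 was the exception. Only 3 of 9 mammillary markers were bright enough to fit, of which Foxb1 and Nkx2-4 were higher; 5 of the 9 were not well above background on any hypothalamus array, and with no filter on background 4 passed as higher. Only 1 of the 2 calls remained without the RFR pool or with the background flag required on all 9 arrays. Anterior markers were thus detected more widely than mammillary markers in a hypothalamus slice labelled as lying behind bregma. Whether this pattern matches the labelled position was not tested.

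The converse held for transcription factors of cortical excitatory neurons. Of 24 fitted members 19 were lower in the hypothalamus and 2, Foxp2 and Tle4, were higher, with a median of -2.57. The 2 higher calls were lost without the RFR pool, and 1 of them without the hypothalamus CR or the prefrontal cortex AD array. Neurod6 stood at 1.1, 1.23 and 1.07 in the prefrontal cortex and was not well above background on any hypothalamus array, at least 70.1-fold lower (log2 difference -8.05, SE 0.13, adjusted p = 5.6e-07). Neurod2, whose window is printed above, measured -2.79, -2.86 and -3.33 against 4.24, 4.17 and 3.79, 133-fold lower (log2 difference -7.06, SE 0.12, adjusted p = 7.7e-07). A second Neurod2 probe gave a difference of -5.62. Mef2c, an activity-regulated factor of excitatory neurons, measured -0.04, -0.37 and -0.53 against 4.78, 4.56 and 4.37, 29.5-fold lower (log2 difference -4.88, SE 0.11, adjusted p = 1.1e-06). Emx2 at -1.34, -1.31 and -1.18 and Tbr1 at -0.90, -0.61 and 0.13 in the prefrontal cortex were not well above background in the hypothalamus, at least 13.2-fold and 22.4-fold lower. Fezf2, the determinant of deep-layer projection neurons, measured -4.06, -3.96 and -4.13 against -0.08, -0.12 and -0.10, 15.5-fold lower (log2 difference -3.95, SE 0.11, adjusted p = 1.6e-06).

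Layer markers as a whole did not separate the regions in 1 direction. Of 22 fitted markers 9 were higher and 8 lower in the hypothalamus, with a median of 0.40, and 5 of the 9 higher calls remained without the RFR pool. Lamp5, a marker of upper layers, measured -0.41, -0.52 and -0.48 against 3.69, 3.62 and 3.96, 18.7-fold lower (log2 difference -4.22, SE 0.12, adjusted p = 1.6e-06), and Cplx3 of the subplate layer was 7.42-fold lower. Ntsr1, the neurotensin receptor used as a marker of corticothalamic layer VI cells, measured -0.17, -0.10 and 0.27 against -1.75, -2.04 and -1.55 and was 3.43-fold higher in the hypothalamus (log2 difference 1.78, SE 0.13, adjusted p = 5.9e-05). Scnn1a, Rspo1 and Whrn, also listed as layer markers, were 3.94-fold, 2.88-fold and 2.74-fold higher in the hypothalamus. Rorb, a marker of layer IV, did not pass (log2 difference 0.07, adjusted p = 0.88).

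Genes of the glutamatergic synapse and its plasticity were lower without exception among the 19 fitted of 22 listed, with a median of -2.60. Slc30a3, which loads zinc into glutamate vesicles, stood at 1.18, 0.60 and 0.74 in the prefrontal cortex and was well above background on 1 of 3 hypothalamus arrays, at least 45.2-fold lower (log2 difference -5.50, SE 0.18, adjusted p = 2.1e-06). Itpka, a kinase concentrated in dendritic spines, measured 1.57, 1.52 and 1.68 against 6.59, 6.69 and 6.64, 33.1-fold lower (log2 difference -5.05, SE 0.12, adjusted p = 1.1e-06). Nrgn, the postsynaptic calmodulin-binding protein neurogranin, measured 4.19, 4.00 and 4.33 against 7.85, 7.92 and 7.79, 12.8-fold lower (log2 difference -3.68, SE 0.13, adjusted p = 2.7e-06). Arpp21 and the Nogo receptor Rtn4r were 18.9-fold and 16.3-fold lower. Camk2a, the kinase of synaptic potentiation, was 8.27-fold lower with its brightest probe (log2 difference -3.05, SE 0.18, adjusted p = 2e-05), but averaging its probes gave 0.01, because its other probe differed in the opposite direction. Without the RFR pool 18 of the 19 calls remained, Dlg4 being lost.

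**Figure D4:**
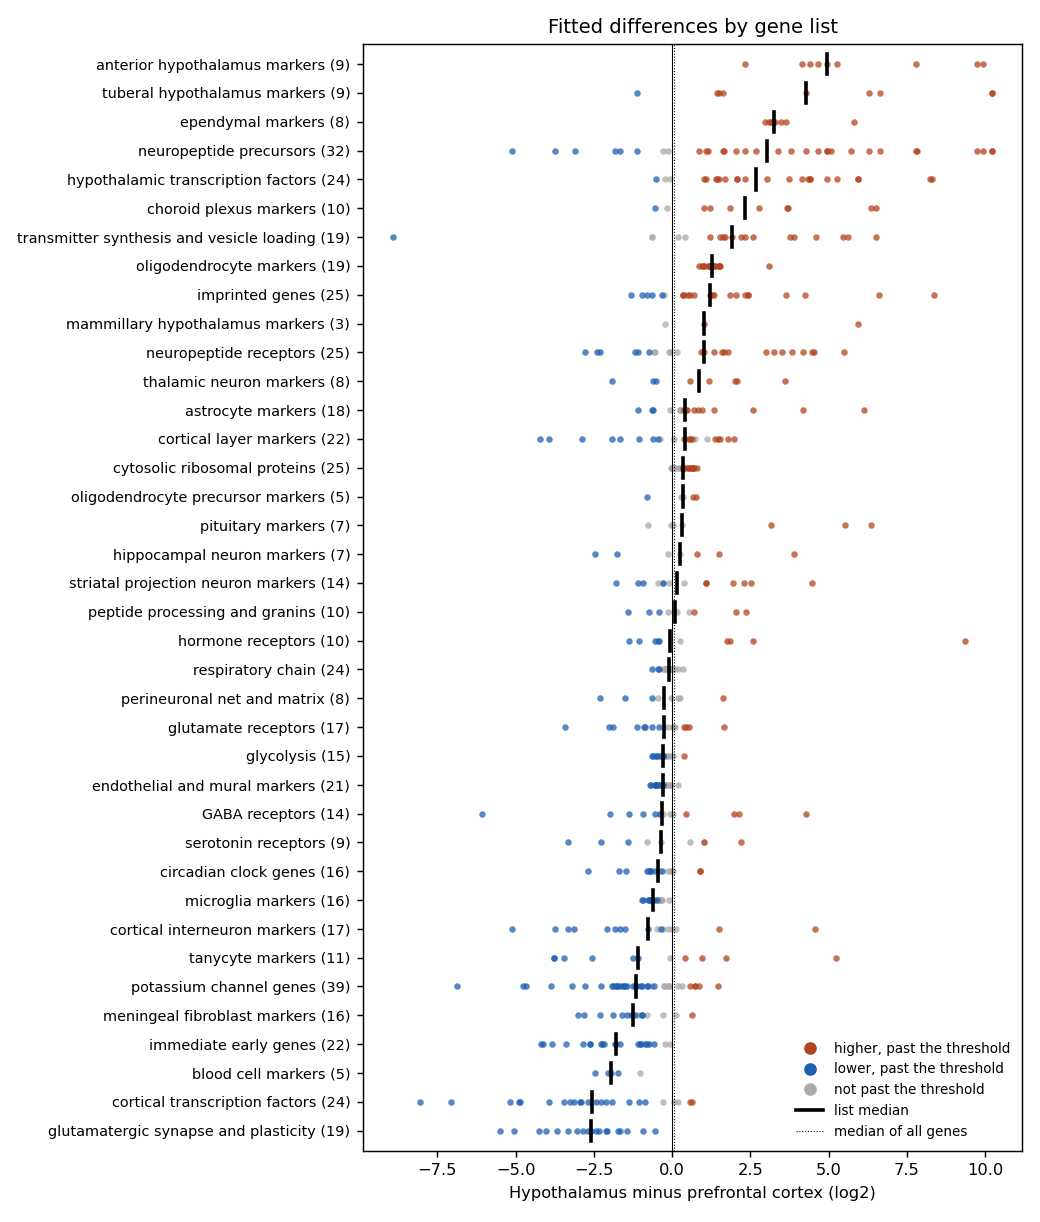
Fitted log2 difference, hypothalamus minus prefrontal cortex (x axis), of every fitted member of 38 gene lists, with the number of fitted members in parentheses. Points are genes coloured by call, bars are list medians, and the dotted line is the median of all 12618 genes; medians run from 4.95 for anterior hypothalamus markers to -2.60 for the glutamatergic synapse.

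Genes for making and loading transmitters showed an exchange of vesicular glutamate transporters. Slc17a7 stood at 2.06, 2.03 and 2.05 in the prefrontal cortex and was not well above background on any hypothalamus array, at least 132-fold lower (log2 difference -8.92, SE 0.21, adjusted p = 1.1e-06). Slc17a6 measured 2.41, 2.39 and 2.58 in the hypothalamus and -1.44, -1.53 and -0.96 in the prefrontal cortex, 13.6-fold higher (log2 difference 3.77, SE 0.12, adjusted p = 2e-06). Slc17a7 was the only lower member of the list in the main fit: of 19 fitted genes 14 were higher, with a median of 1.90. Genes bright in only 1 region passed the filter through that region. With the background flag required on all 9 arrays 11 were higher and none lower, because Slc17a7 was then not fitted.

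Of the 14 higher genes 5 serve the monoamines. Hdc, which makes histamine and is used in the brain by neurons of the tuberomammillary nucleus, measured 2.39, 2.34 and 2.04 against -3.90, -4.82 and -3.99, 90.2-fold higher (log2 difference 6.50, SE 0.27, adjusted p = 5.5e-06). Slc18a2, which loads monoamines into vesicles, stood at 0.44, 0.53 and 0.63 and was well above background on 1 of 3 prefrontal cortex arrays, at least 47.2-fold higher (log2 difference 5.61, SE 0.12, adjusted p = 1.1e-06). Th, which makes the dopamine precursor, measured 0.51, 0.29 and 0.41 against -3.86, -4.46 and -4.21, 24-fold higher (log2 difference 4.58, SE 0.18, adjusted p = 4.1e-06), and Ddc, the next enzyme, 14.8-fold. The dopamine transporter Slc6a3 stood at -0.20, -0.59 and -0.35, at least 31.6-fold higher. Of the GABA genes, the vesicular transporter Slc32a1 measured 6.79, 6.65 and 6.85 against 5.42, 5.58 and 5.67, 2.32-fold higher (log2 difference 1.21, SE 0.10, adjusted p = 0.0001), and Gad2 was 3.09-fold higher. Gad1, the other enzyme of GABA synthesis, measured 2.87, 3.05 and 3.36 against 2.42, 2.63 and 2.97 and did not pass (log2 difference 0.42, adjusted p = 0.063).

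Cortical interneuron markers were lower for 10 of 17 fitted genes and higher for 2, with a median of -0.77. Beside Cck, Cort, Vip and Npy, Pvalb of fast-spiking cells measured -2.53, -2.48 and -1.47 against 0.76, 0.79 and 1.39, 8.84-fold lower (log2 difference -3.14, SE 0.20, adjusted p = 3e-05). Htr3a, a serotonin-gated channel of superficial interneurons, measured -3.53, -2.87 and -2.85 against 0.43, -0.21 and 0.54, 10.1-fold lower (log2 difference -3.34, SE 0.27, adjusted p = 8.1e-05). Calb2, which encodes calretinin, measured 2.72, 2.57 and 2.55 against -1.40, -2.40 and -2.08 and was 23.8-fold higher (log2 difference 4.57, SE 0.33, adjusted p = 5e-05).

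Markers of neighbouring forebrain structures were mixed. Of 14 fitted striatal markers 6 were higher and 4 lower, with a median of 0.14, which fell below 0 under 2 alternatives, and 2 lower calls remained without the hypothalamus CR array or the prefrontal cortex AD array. The dopamine receptor Drd2 stood at -0.74, -0.92 and -1.07 in the hypothalamus and was not well above background on any prefrontal cortex array, at least 19.3-fold higher (log2 difference 4.47, SE 0.32, adjusted p = 4.6e-05). Drd1 (log2 difference -0.44, adjusted p = 0.067) and the adenosine receptor Adora2a (log2 difference -0.09, adjusted p = 0.66), both abundant in striatal cells, did not pass. Of 8 fitted thalamic markers 5 were higher and 3 lower, 1 of these without the RFR pool. Zic1 was 4.18-fold and Tcf7l2 4-fold higher, and Gbx2 stood at -3.62, -3.58 and -4.42 in the hypothalamus, at least 2.81-fold higher. Of 7 fitted hippocampal markers 3 were higher and 2 lower, and 1 higher call remained with the background flag required on all 9 arrays. C1ql2, a secreted synaptic protein of dentate granule cells, measured -0.49, -0.98 and -1.11 in the hypothalamus and was well above background on 2 of 3 prefrontal cortex arrays, at least 14-fold higher. The part of neighbouring tissue in the region differences was not tested.

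Receptors for peptides and hormones differed in both directions. Of 25 fitted peptide receptors 14 were higher and 6 lower, with a median of 1.00, and 9 higher calls remained with the background flag required on all 9 arrays. Tacr3, the neurokinin B receptor, stood at -1.82, -1.69 and -1.02, at least 14.5-fold higher (log2 difference 5.48, SE 0.17, adjusted p = 1.9e-06). Avpr1a, a vasopressin receptor, stood at -1.52, -1.47 and -1.47, at least 14.3-fold higher (log2 difference 4.48, SE 0.22, adjusted p = 9.6e-06). Neither was well above background on any prefrontal cortex array. The receptors of corticotropin-releasing hormone differed in opposite directions. Crhr2 measured 1.56, 1.68 and 1.65 against -2.05, -2.02 and -2.53, 14.3-fold higher (log2 difference 3.83, SE 0.17, adjusted p = 6.7e-06). Crhr1 measured 0.20, 0.42 and 0.45 against 2.59, 3.07 and 2.64, 5.31-fold lower (log2 difference -2.41, SE 0.14, adjusted p = 1.9e-05). Cckbr, the receptor of the brain form of cholecystokinin, measured -0.34, -0.08 and 0.27 against 2.42, 2.86 and 2.90, 6.85-fold lower (log2 difference -2.78, SE 0.19, adjusted p = 4.1e-05), as its ligand Cck was.

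Of 10 fitted hormone receptors 4 were higher (Calcr, Esr1, Prlr and Ghr) and 5 lower (Thrb, Thra, Pgr, Nr3c1 and Igf1r), with 2 of the lower calls remaining without the RFR pool and 3 without the CR pool, the hypothalamus AD or the prefrontal cortex CR array. Esr1, the main oestrogen receptor of the hypothalamus, measured -1.13, -1.55 and -1.68 against -3.54, -3.82 and -4.72, 5.94-fold higher (log2 difference 2.57, SE 0.15, adjusted p = 2.2e-05). Thra, a thyroid hormone receptor, measured 3.61, 3.73 and 3.47 against 4.74, 4.75 and 4.54, 2.11-fold lower (log2 difference -1.07, SE 0.11, adjusted p = 0.00026).

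Potassium channel genes, which set the excitability of neurons, were mostly lower. Of 39 fitted members 26 were lower and 5 higher, with a median of -1.17. Kcnh3, a voltage-gated subunit of forebrain neurons, stood at 0.32, 0.12 and 0.32 in the prefrontal cortex and was not well above background on any hypothalamus array, at least 38.1-fold lower (log2 difference -6.89, SE 0.18, adjusted p = 1.2e-06). Kcnj4, an inward rectifier, measured 0.94, 0.60 and 1.03 against 5.49, 5.53 and 5.52, 25.2-fold lower (log2 difference -4.66, SE 0.12, adjusted p = 1.2e-06). Kcnv1, a silent subunit, and Kcnq5, which carries M current, were at least 8.99-fold and 6.29-fold lower, being not well above background in the hypothalamus. The 5 higher members were Kcnip1, Kcnj10, Kcnh2, Kcnj16 and Kcnd3. Kcnj10, the rectifier of glial cells, measured 4.70, 4.48 and 4.80 against 3.65, 3.73 and 4.01, 1.82-fold higher (log2 difference 0.86, SE 0.12, adjusted p = 0.0012). Kcnj6 was lower by its brightest probe (log2 difference -1.58) and gave 0.10 when its probes were averaged.

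GABA receptor genes, most of them for subunits of the GABA-gated chloride channel, differed in both directions. Gabrd, the subunit of extrasynaptic receptors that carry tonic inhibition, measured -1.86, -2.0 and -1.66 against 4.21, 4.14 and 4.31, 66.8-fold lower (log2 difference -6.06, SE 0.17, adjusted p = 1.6e-06). Gabra4, which often assembles with it, was 3.95-fold lower. Gabrq stood at -2.91, -3.17 and -3.28 in the hypothalamus and was not well above background on any prefrontal cortex array, at least 4.73-fold higher (log2 difference 4.28, SE 0.44, adjusted p = 0.00024). Gabrg1 measured 3.34, 3.09 and 3.23 against 1.13, 1.17 and 0.94, 4.4-fold higher (log2 difference 2.14, SE 0.11, adjusted p = 1e-05). In all, 4 of 14 fitted members were higher and 6 lower, and 2 of the higher calls remained without the AD pool, the RFR pool or any 1 of 3 single arrays (the hypothalamus AD and CR and the prefrontal cortex CR array).

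Of 17 fitted glutamate receptor genes 8 were lower and 4 higher, and without the RFR pool 4 and 1. Without the CR pool or either of its 2 arrays 2 of the higher calls remained. Grin2a, an NMDA receptor subunit of mature cortex, stood at -2.81, -3.07 and -3.04 in the prefrontal cortex and was not well above background in the hypothalamus, at least 4.07-fold lower (log2 difference -3.44, SE 0.24, adjusted p = 3.9e-05). Gria3, an AMPA receptor subunit, measured 0.59, 0.71 and 0.37 against 2.52, 2.55 and 2.32, 3.74-fold lower (log2 difference -1.90, SE 0.13, adjusted p = 3.7e-05). Among serotonin receptors 2 of 9 were higher and 3 lower, or 5 lower under quantile scaling and 1 with the background flag required on all 9 arrays, and 1 of the higher calls remained without the RFR pool, the hypothalamus AD or RFR or the prefrontal cortex RFR or CR array. Htr2c, a receptor of appetite circuits, measured 0.02, 0.13 and 0.52 against -1.94, -1.88 and -2.08, 4.56-fold higher (log2 difference 2.19, SE 0.18, adjusted p = 8.4e-05), and its relative Htr2a was lower (log2 difference -2.27, adjusted p = 0.00055), not well above background in the hypothalamus.

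Immediate early genes, which neurons switch on within minutes of activity, were lower in the hypothalamus for 20 of 22 fitted members and higher for none, with a median of -1.81. Arc, which acts at active synapses, measured 1.57, 1.27 and 1.26 against 5.72, 5.70 and 5.07, 17.6-fold lower (log2 difference -4.14, SE 0.15, adjusted p = 2.8e-06). Egr2 measured -2.21, -2.34 and -2.03 against 1.56, 2.14 and 1.27, 14.4-fold lower (log2 difference -3.85, SE 0.25, adjusted p = 2.8e-05), and Egr4 was 10.5-fold lower. Ptgs2, an inducible cyclooxygenase, stood at -3.23, -2.59 and -2.74 in the prefrontal cortex and was not well above background in the hypothalamus, at least 4.42-fold lower. Fos, the gene most used as an activity marker, measured -0.12, -0.05 and 0.19 against -0.13, 0.24 and 0.13 and did not pass (log2 difference -0.08, adjusted p = 0.75). Jun did not pass either (log2 difference -0.23, adjusted p = 0.19). The summed linear level of the list was 46.7 to 49.7 over the hypothalamus arrays and 201 to 287 over the prefrontal cortex arrays, in multiples of the 75th percentile of the array. The difference of Egr2 was -3.78, -4.48 and -3.30 in AD, RFR and CR, that of Egr4 -3.42, -3.71 and -3.06 and that of Arc -4.16, -4.43 and -3.82. In each of these 3 genes the RFR pair differed most. That pair alone had its arrays on different slides, so diet and slide cannot be told apart here. With 1 pair per diet, the diets were not tested.

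**Figure D5:**
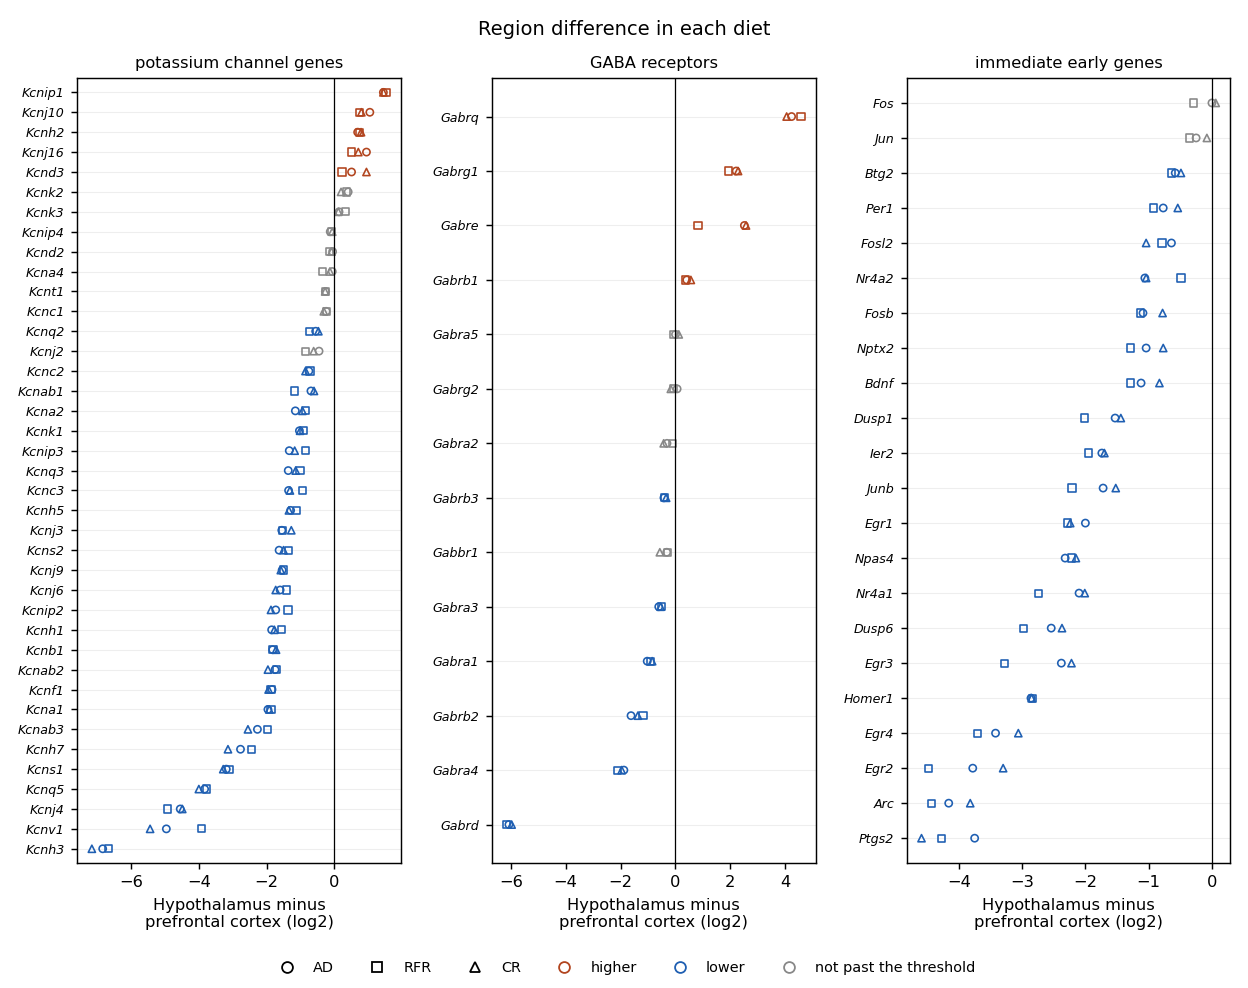
Log2 difference, hypothalamus minus prefrontal cortex (x axis), in the AD, RFR and CR pair for fitted potassium channel genes, GABA receptor genes and immediate early genes, each ordered by the fitted difference; colours give the call. Most genes have 3 symbols on the same side of 0, and Gabrd lies near -6 in all 3 diets.

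Imprinted genes, which are read from 1 parental copy and are often active in the hypothalamus, were higher for 18 of 25 fitted members and lower for 5, with a median of 1.21. Dlk1, expressed from the paternal copy, stood at 1.40, 1.15 and 1.01 and was not well above background on any prefrontal cortex array, at least 93.7-fold higher (log2 difference 8.37, SE 0.24, adjusted p = 1.6e-06). Asb4 measured 2.65, 2.51 and 2.57 against -3.62, -4.63 and -3.82, 97.1-fold higher (log2 difference 6.60, SE 0.19, adjusted p = 1.6e-06). Nnat, which encodes neuronatin, measured 4.60, 4.49 and 4.79 against 0.54, 0.43 and 0.23, 18.7-fold higher (log2 difference 4.23, SE 0.26, adjusted p = 2.3e-05). Ndn, one of the genes lost in Prader-Willi syndrome, measured 5.73, 5.32 and 5.07 against 3.26, 2.84 and 2.74, 5.39-fold higher. Snrpn of the same imprinted region was lower (log2 difference -0.33, adjusted p = 0.032), a call lost without any 1 of the 3 pools. Without the RFR pool 2 of the 5 lower calls remained, and 3 without the AD pool, an AD array of either region or the hypothalamus RFR array.

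Glial and barrier cell markers moved with the regions as well. Oligodendrocyte markers were higher in the hypothalamus for all 19 fitted genes, with a median of 1.28, and the summed level of the list was 216 to 285 against 73.7 to 126. Mbp, a main protein of myelin, measured 6.39, 5.99 and 6.26 against 5.05, 4.79 and 5.33, 2.23-fold higher (log2 difference 1.16, SE 0.14, adjusted p = 0.00055). Nkx6-2, a homeodomain factor of myelinating cells, stood apart from the others at 4.44, 4.26 and 4.72 against 1.09, 1.32 and 1.70, 8.6-fold higher (log2 difference 3.10, SE 0.17, adjusted p = 1.5e-05). Of 5 precursor markers 2 were higher (Pdgfra and Gpr17) and Bmp4 was lower. Without the RFR pool 1 was higher and none lower, and the Bmp4 call was also lost without the hypothalamus RFR or the prefrontal cortex AD array and with the slide as a fixed term.

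Astrocyte markers were higher for 10 of 18 fitted genes and lower for 3, with a median of 0.41, and 1 of the lower calls remained without the RFR pool. Agt, which encodes angiotensinogen, measured 5.79, 5.69 and 5.88 against -0.48, -0.24 and -0.32, 70.2-fold higher (log2 difference 6.13, SE 0.15, adjusted p = 1.1e-06). Itih3 measured 6.09, 5.80 and 6.05 against 1.54, 1.86 and 1.98, 18.2-fold higher (log2 difference 4.19, SE 0.15, adjusted p = 2.6e-06). Slc6a11, the astrocyte transporter of GABA, was 5.98-fold higher. Slc1a2, the main glutamate transporter of cortical astrocytes, measured 1.41, 1.16 and 1.18 against 2.55, 2.18 and 2.29, 2.12-fold lower (log2 difference -1.08, SE 0.09, adjusted p = 0.00011). Aqp4 (log2 difference 0.37, adjusted p = 0.1) and Aldh1l1 (log2 difference -0.07, adjusted p = 0.64), which mark astrocytes in general, did not pass.

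Markers of ependymal cells, which line the ventricles, were higher in the hypothalamus, and those of tanycytes, which line the floor of the third ventricle, were mixed. All 8 fitted ependymal markers were higher, with a median of 3.26 and summed levels of 20.9 to 25.6 against 2.19 to 2.41. Foxj1, the master factor of motile cilia, measured 0.72, 0.87 and 0.92 against -2.53, -2.49 and -2.32, 9.75-fold higher (log2 difference 3.29, SE 0.14, adjusted p = 6.6e-06). Of 11 fitted genes listed as tanycyte markers 4 were higher and 6 lower, with a median of -1.08, and 2 of the higher calls remained without the RFR pool, without the hypothalamus AD, prefrontal cortex RFR or prefrontal cortex CR array, under normexp, and with the background flag required on all 9 arrays. Fndc3c1 stood at -2.03, -2.46 and -2.67, at least 7.86-fold higher (log2 difference 5.24, SE 0.27, adjusted p = 1.2e-05), and Dio2, which activates thyroid hormone in tanycytes and astrocytes, measured -0.59, -0.69 and -0.60 against 3.43, 3.07 and 2.94, 13.7-fold lower (log2 difference -3.77, SE 0.16, adjusted p = 5.7e-06). The lower members Lhx2 and Crym are also expressed by cortical neurons.

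Of 10 fitted choroid plexus markers 8 were higher and Enpp2 was lower, a call lost in 7 of the 9 fits without 1 pool or array. With the background flag required on all 9 arrays 4 were higher, and the summed levels overlapped, at 16.5 to 21.7 against 13.8 to 17.6. Clic6, a chloride channel protein, measured 2.58, 2.48 and 2.67 against -3.99, -3.51 and -4.33, 91.7-fold higher (log2 difference 6.52, SE 0.19, adjusted p = 1.6e-06). Calml4 stood at -0.55, -0.87 and -0.68, at least 25.4-fold higher. Ttr, the transthyretin gene, a highly abundant transcript of that tissue, was low in both regions: it stood at -4.15, -3.39 and -2.69 in the hypothalamus, was not well above background in the prefrontal cortex, and was at least 3.88-fold higher (log2 difference 3.67, SE 0.58, adjusted p = 0.0019). Of the pituitary markers 3 of 7 fitted were higher, and none of these 3 was bright enough to be fitted with the background flag required on all 9 arrays. Cga, the common subunit of the glycoprotein hormones, stood at 0.77, 0.82 and 0.91 and was well above background on 1 of 3 prefrontal cortex arrays, at least 59.2-fold higher (log2 difference 6.36, SE 0.34, adjusted p = 1.4e-05). Pitx1 stood at -2.32, -1.91 and -1.94 (at least 9.91-fold) and Tshb, which pairs with Cga in thyrotropin, at -4.49, -4.22 and -3.62 (at least 2.38-fold). Prl and Gh, the most abundant hormones of the anterior pituitary, were well above background only on the RFR array in each region and did not pass; the Prl level there was -2.04 in the hypothalamus and -1.84 in the prefrontal cortex.

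Markers of microglia, vessels, meninges and blood were lower or did not pass, apart from 1 meningeal gene. Of 16 fitted microglial genes 9 were lower, none higher, with a median of -0.60, and 2 remained without the RFR pool. Fcrls was 1.97-fold lower (log2 difference -0.97, SE 0.18, adjusted p = 0.0043). Of 21 endothelial and mural genes 10 were lower, with a median of -0.30, and between 1 and 8 were lower over the fits without 1 pool or array, the fewest without the RFR pool. Of 16 meningeal fibroblast genes 10 were lower and 1 higher, with a median of -1.24, and 2 to 4 lower calls remained without the RFR pool, the AD pool or an AD or RFR array of either region, and 3 with the slide as a fixed term.

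Slc22a6, a transporter of meningeal fibroblasts, measured -3.02, -2.45 and -0.85 against 0.87, 0.98 and 0.29, 7.06-fold lower (log2 difference -2.82, SE 0.49, adjusted p = 0.0031), a call lost without the RFR pool. Its difference was -3.89, -3.43 and -1.14 in AD, RFR and CR. Igfbp2 measured -0.71, -0.69 and 0.05 against 2.84, 2.56 and 2.27, 8.02-fold lower (log2 difference -3.00, SE 0.26, adjusted p = 0.00011). The collagen Col1a1 measured -0.37, -0.73 and -0.32 against 1.92, 0.51 and -0.57, with overlapping arrays, and did not pass (adjusted p = 0.086). The summed level of the meningeal list was 44.1 to 98.3 over the hypothalamus arrays and 117 to 161 over the prefrontal cortex arrays. Of 5 fitted blood genes 4 were lower, 2 with the background flag required on all 9 arrays; the haemoglobin gene Hba-a1 measured 1.23, -0.20 and 1.77 against 2.50, 2.32 and 3.18, 3.32-fold lower (log2 difference -1.73, SE 0.26, adjusted p = 0.0015), in perfused tissue. The part of these other cell types in the neuronal differences was not tested.

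Housekeeping genes of energy metabolism and of the ribosome had small median differences. Over all genes 26.7% were higher and 21.3% lower. In the main fit the lower glycolytic calls and the higher ribosomal calls exceeded these shares. Of 24 fitted genes of the respiratory chain 3 were lower and none higher, with a median of -0.10, and 1 call remained without the AD pool, the RFR pool or any 1 of 4 single arrays. Of 15 glycolytic genes 8 were lower and 1 higher, with a median of -0.30, and 2 to 5 of the lower calls remained without 1 pool or array. Ldha, the largest of these, was 1.54-fold lower (log2 difference -0.63, SE 0.11, adjusted p = 0.0033). Of 25 ribosomal protein genes 11 were higher, with a median of 0.36 and at least 5 calls remaining without 1 pool or array; Rpl10 was 1.74-fold higher (log2 difference 0.80, SE 0.18, adjusted p = 0.0096).

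The difference between the regions varied little over the 3 diets for most genes. Among 12547 fitted genes with values on all 6 arrays its median range over the diets was 0.24, and it ranged over more than 1 for 743 genes (5.92%). Among 11262 genes well above background on all 6 arrays, its median range over the diets was 0.22, and it ranged over more than 1 for 243 genes (2.16%). The 6 genes with the widest range were Tex19.2, 6820408C15Rik, Glyctk, Upb1, Rims3 and Tcerg1l, with ranges of 3.04 to 3.72. Their levels lay at or below -0.86, and in 5 of them the CR array of the prefrontal cortex was the highest of the 6 arrays. Rims3, a presynaptic scaffold gene, measured -2.74, -3.50 and -3.85 in the hypothalamus and -4.32, -4.68 and -2.25 in the prefrontal cortex. In the authors' deposited table the change of the Rims3 difference from AD was -0.33 for RFR and -3.17 for CR. Up to a constant, 99.2% of the deposited ratios lay within 0.01 log2 of the same scanner signals. They are therefore no independent measurement. Upb1, an enzyme of pyrimidine breakdown, was the only gene of the 6 to pass (log2 difference 1.74, SE 0.57, adjusted p = 0.041), with differences of 0.05, 1.85 and 3.32. With 1 array per region and diet none of these ranges has a replicate.

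In the amygdala, cut from the slice level of the hypothalamus, the mean level lay between those of the 2 regions for 7371 of 12534 fitted genes with a mean in each region. It did so for 394 of the 461 genes higher in the hypothalamus by at least 4-fold and for 346 of the 394 lower genes, which were chosen for a wide gap between the regions. Its Cck level averaged 5.88, nearer to the prefrontal cortex, and its Slc17a6 level averaged 2.20, nearer to the hypothalamus. The arrays of the amygdala share the fit and its spread with the comparison, and their own differences were not tested here.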

How the data were processed

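The 9 arrays are Agilent 1-colour designs. Per the file headers, the authors' scanner software (Feature Extraction 9.5.1.1) gave each spot a background-subtracted, detrended intensity, with flags for saturation, outliers and signal well above background. The series table deposited by the authors holds a ratio of each array to the AD array of the same region, so it cannot give the region difference and was used only for its change with diet. From the intensities, log2 values minus the 75th percentile of each array were computed, outlier spots left out and spots of a probe averaged. Probes were named through RefSeq accessions: 22951 of 41174 had a name, for 16358 genes, each represented by its brightest probe. Genes well above background on at least 3 arrays, with values on at least 6, were fitted by region and diet with limma 3.58.1 (R 4.3.3), leaving 4 residual degrees of freedom. P-values were adjusted by the Benjamini-Hochberg method over all 12618 fitted genes, and the code was tested on simulated data.

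The diet term pairs the arrays, since both regions of a diet came from the same pool of mice. "At least" folds use the higher of the dim probe's own signal and the lowest signal well above background on that array, and means of normalized log2 values. They hold for the background subtraction of the scanner software, and normexp gave smaller differences for some of these genes. The number of arrays limits the precision. Named genes are the 12 largest differences in each direction of 1 sign in all pairs, up to 8 members (neuronal and signalling lists) or 4 members (other lists) with the largest differences past the threshold, and the 6 genes with the widest range over diets; further named members were picked once their values were known. The comparison and the 38 lists were chosen with earlier results of these data known, so no list was tested.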

Additional observations from a re-analysis of the deposited data

How the results depend on the processing

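Directions and calls were recomputed under 21 alternatives. The count of 6054 genes ranged from 5494 to 6291 under other background, scaling, filter, probe and variance settings. It was 5628 without the replicate block by diet, 8081 with the 6 arrays alone, 5500 with the slide as a fixed term and 6056 as a random block. Leaving out a pool or an array gave 3496 to 5232 genes, 2006 to 2875 higher and 1490 to 2357 lower; the lowest values are those without the RFR pool, which leaves 2 residual degrees of freedom. Of the 6054 called genes 37 changed sign with probes averaged, 11 with dim values raised to the limit of each array and 5 under normexp. Among the genes listed or named, 3 did so, with probes averaged: Camk2a gave 0.01, Kcnj6 0.10 and Rasgrf1 -0.06. List medians changed sign for striatal markers (-0.19 when every one of the 9 arrays had to pass the background flag, -0.02 with probes averaged), hippocampal markers (-0.14 with that filter), hormone receptors (0.25 with that filter and 0.25 with no filter), serotonin receptors (0.33 and 0.43) and pituitary markers (-0.01 under normexp, -0.03 with that filter). Blocking by diet changed no direction; without it 18 of the listed and named results no longer passed. Under the normexp correction 13 of the 24 largest log2 differences shrank by over 1.5 times on the log2 scale, to as little as -3.15 for Mas1. The folds shrank by more. Requiring the background flag on all 9 arrays removes genes that are dim in 1 region and left 9 of the 21 higher hypothalamic factors, 3 of 9 anterior markers, 9 of 14 peptide receptors, 4 of 8 choroid plexus markers and 0 of 3 pituitary markers. Signal near background limits the size of these differences.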

Other observations

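Clock and matrix genes fall outside the groups described above. Of 16 fitted circadian clock genes 9 were lower and 2 higher in the hypothalamus, with a median of -0.47 and all tissue taken at 14:00. Npas2, the forebrain partner of the clock factor encoded by Arntl, stood at -2.19, -2.33 and -2.37 in the prefrontal cortex and was not well above background on any hypothalamus array, at least 5.83-fold lower (log2 difference -2.69, SE 0.22, adjusted p = 9.1e-05, limma). Hlf, an output factor of the clock, measured 1.87, 1.64 and 1.60 against 3.34, 3.41 and 3.49, 3.27-fold lower. Cry1 and Bhlhe41 were the higher members, 1.85-fold and 1.84-fold, and neither passed under the normexp correction. Of 8 fitted genes of the perineuronal net and matrix 3 were lower, among them Ncan, which encodes neurocan, at 4.41, 4.13 and 4.06 against 5.87, 5.76 and 5.51, 2.85-fold lower. Hapln2, a link protein of myelinated axons, measured -1.10, -1.58 and -1.08 against -3.07, -3.08 and -2.46 and was 3.06-fold higher.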
